A study of Mus musculus with 9 samples.

Results

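CpG methylation was examined at 10 genes of the germline program, *Dazl*, *Ddx4*, *Mael*, *Tdrd1*, *Sycp1*, *Sycp3*, *Hormad1*, *Sohlh2*, *Slc25a31* and *Rpl10l*, in mouse embryonic stem cells (ESCs) with and without the de novo DNA methyltransferases DNMT3A and DNMT3B. The genes were taken as a named list, and their CpGs were those within 1 kb on either side of the transcription start site (TSS), here called the promoter, and those of the gene body, from 1 kb after the TSS to the gene's end. They are 10 of the 14278 protein-coding genes in the part of the genome that all 3 tables cover, of which 14080 had 5 or more promoter CpGs read 3 or more times in each genotype. Of 809 reference CpGs in the 10 promoters, 766 had these reads, and 2036 CpGs did in the bodies of 9 genes. *Rpl10l*, with a single exon of 1021 bp, has no body by this definition.

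The cells were J1 ESCs of the strain 129S4/SvJae, grown on gelatin with serum and LIF and without a feeder layer. The 3 groups were wild type (WT), Dnmt3a-/- (*Dnmt3a* KO, 3aKO) and Dnmt3b-/- (*Dnmt3b* KO, 3bKO) ESCs, each profiled by whole genome bisulfite sequencing (WGBS) in 3 libraries labelled as biological replicates. The libraries of a genotype were merged into 1 table, so that each genotype gives 1 pooled value, no difference can be set against the spread between replicates, and a deletion and any other difference between the cell lines cannot be told apart. The WT reads serve as the reference for both comparisons. Intervals below are 95% Wilson intervals of shares of reads and cover counting error only. Over a promoter or body, a read counts once at each CpG that it spans. Such counts are not independent, so that these intervals are too narrow even for counting error.

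Germline genes are transcribed in the cells that form eggs and sperm and are kept off in other cells. Many of them start in CpG-rich promoters which, unlike most promoters of this kind, become methylated in the early embryo by DNMT3A and DNMT3B, and the methyl groups are then copied at each cell division by DNMT1. In ESCs many of these promoters are also bound by a variant Polycomb complex, PRC1.6, whose E2F6 and MGA subunits recognise E2F motifs and E-boxes. RNA was not measured in these tables, so that methylation, and not silencing, is described here, and bisulfite sequencing does not separate methylcytosine from hydroxymethylcytosine.

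Mean methylation over the 13328402 CpGs that met this minimum was highest in WT (82.4%), followed by 3bKO (75.5%) and 3aKO ESCs (50.3%). Median depths were 20 to 22 reads, taken over all CpGs with any read in the given genotype. At the targeted genes, a run of 12 CpGs in *Dnmt3a* had 377 reads in WT, 202 in 3bKO and 0 in 3aKO ESCs. A run of 30 CpGs in *Dnmt3b* had 944 reads in WT, 792 in 3aKO and 0 in 3bKO ESCs, so that both deletions lie where the labels put them. Of 7 ESC marker genes, 6 had WT promoters at 7.4% or below, among them *Pou5f1* and *Sox2*, and *Esrrb* stood at 94.1%. Of the markers of other cell types compared with WT, the 3 of endoderm were low as well, at 9.66 to 16.1%. The fibroblast marker *Col1a1* was at 47.9% and the trophoblast marker *Elf5* at 95.3%. These levels do not by themselves identify the cells.

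The 10 genes lie on chromosomes 1, 3, 10, 12, 13, 17 and 19, and 8 of the promoters fall in the high CpG class, with *Sycp3* and *Sohlh2* in the intermediate class. The class was read from the CpG ratio and GC content of 500 bp windows in the promoter. CpG density ran from 2.90 CpGs per 100 bp at *Hormad1* to 7.05 at *Dazl*. Methylation of such promoters was rare in WT ESCs. Of 7241 promoters of the high CpG class, 59 (0.815%) were at 50% or more, and these 59 included 7 of the 10 genes. A further 7 of the 59 belonged to a longer list of 60 germline genes described at the end, namely *Henmt1*, *Majin*, *Mei1*, *Pdha2*, *Spata22*, *Spo11* and *Sycp2*, whereas 15 of the 22 genes of that list in the high CpG class lay under 50%.

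The sequences just upstream of the TSS are shown for 7 genes because the methylation of their CpGs, given further on, differed between the genotypes or, in the E-box of *Tdrd1*, was not detected. Each is the 150 bp ending at the base before the TSS on the gene's strand, from the mm9 genome, with E-boxes (CACGTG) and E2F motifs (GCGGGA, or TCCCGC on the other strand) in capitals. In *Sohlh2*, which holds neither motif, the capitals mark CpGs.
Hormad1, chr3:95363449-95363598, plus strand: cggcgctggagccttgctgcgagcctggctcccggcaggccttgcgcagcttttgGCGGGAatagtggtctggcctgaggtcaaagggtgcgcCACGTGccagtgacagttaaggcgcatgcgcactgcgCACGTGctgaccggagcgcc
Sycp3, chr10:87922164-87922313, plus strand: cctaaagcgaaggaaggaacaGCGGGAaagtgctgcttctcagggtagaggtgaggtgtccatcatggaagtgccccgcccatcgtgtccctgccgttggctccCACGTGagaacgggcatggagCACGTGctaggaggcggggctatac
Sycp1, chr3:102740024-102740173, minus strand: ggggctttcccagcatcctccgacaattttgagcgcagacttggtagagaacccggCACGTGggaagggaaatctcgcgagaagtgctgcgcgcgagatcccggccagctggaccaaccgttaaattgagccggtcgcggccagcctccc
Slc25a31, chr3:40512627-40512776, plus strand: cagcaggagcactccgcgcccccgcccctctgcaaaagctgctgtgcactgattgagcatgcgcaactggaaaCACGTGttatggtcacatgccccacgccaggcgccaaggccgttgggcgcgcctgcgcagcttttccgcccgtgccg
Tdrd1, chr19:56900549-56900698, plus strand: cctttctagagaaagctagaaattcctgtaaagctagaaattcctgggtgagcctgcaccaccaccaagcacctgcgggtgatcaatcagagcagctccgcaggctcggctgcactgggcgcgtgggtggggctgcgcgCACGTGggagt
Rpl10l, chr12:67385389-67385538, minus strand: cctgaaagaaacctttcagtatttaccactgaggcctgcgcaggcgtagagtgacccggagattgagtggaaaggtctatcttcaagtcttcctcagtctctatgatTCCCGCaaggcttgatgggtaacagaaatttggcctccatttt
Sohlh2, chr3:54985800-54985949, plus strand: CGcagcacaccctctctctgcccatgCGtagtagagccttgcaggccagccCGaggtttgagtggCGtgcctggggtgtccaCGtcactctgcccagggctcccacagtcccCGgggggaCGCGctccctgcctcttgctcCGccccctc

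The question the genotypes pose is how much of the methylation at these promoters remains without each enzyme. The mean over CpGs was lower in 3aKO than in 3bKO ESCs, and lower in 3bKO than in WT ESCs, at all 10 promoters, an order that 90.2% of all promoters shared. WT levels ran from 39.0% at *Ddx4* to 92.2% at *Sohlh2*, with a median of 64.4%. The median was 30.5% in 3aKO and 50.0% in 3bKO ESCs, and the median difference from WT was -37.9 and -16.3 percentage points. Over the 5225 promoters at 50% or more in WT, the median difference was -36.2 points in 3aKO and -7.65 points in 3bKO ESCs.

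A promoter was called lower than WT where its mean was more than 20 percentage points below WT. In 3aKO ESCs 9 of the 10 promoters were called, all but *Ddx4*, against 40.9% of all promoters and 95.7% of those at 50% or more in WT. As shares of reads *Dazl* was not called, at -15.8 points, and at 10 or more reads *Ddx4* was, at -32.8 points over 10 CpGs. Those 10 do not stand for its whole promoter, since 6 of them were at 80% or more in WT. *Ddx4* was also called on each strand alone, at -30.3 points over 17 CpGs on the plus and -21.8 over 46 on the minus strand. On the minus strand *Sycp3* was not called, at -16.6 points over 12 CpGs. *Ddx4* was not called within 500 bp of the TSS (-13.4 points) or with reads thinned to the lowest depth (-16.6). Nor was it as a share of reads (-17.7) or at 3 reads in the genotype itself (-18.8). The count of 9 is near what methylated promoters showed in general. In 3bKO ESCs 2 of 10 were called, *Mael* and *Sycp1*, against 2.51% of all promoters and 6.32% of those at 50% or more in WT. *Rpl10l* lay just short of the threshold, at -19.6 points. At 10 or more reads and as shares of reads *Rpl10l* passed it, at -20.9 points in both, and *Sycp1* did not, at -16.5 and -19.4 points. Within 500 bp of the TSS 4 genes were called, with *Sohlh2* and *Rpl10l* added at -25.9 and -25.5 points. The share of all promoters called in that window was not computed, so that this count has no background. A closer background is the 103 promoters that were both at 50% or more in WT and at least as CpG-dense as *Hormad1*, a set that holds 9 of the 10 genes. Of these, 90.3% were called in 3aKO and 11.7% in 3bKO ESCs, and their median differences were -37.0 and -12.7 points.

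**Figure D1:**
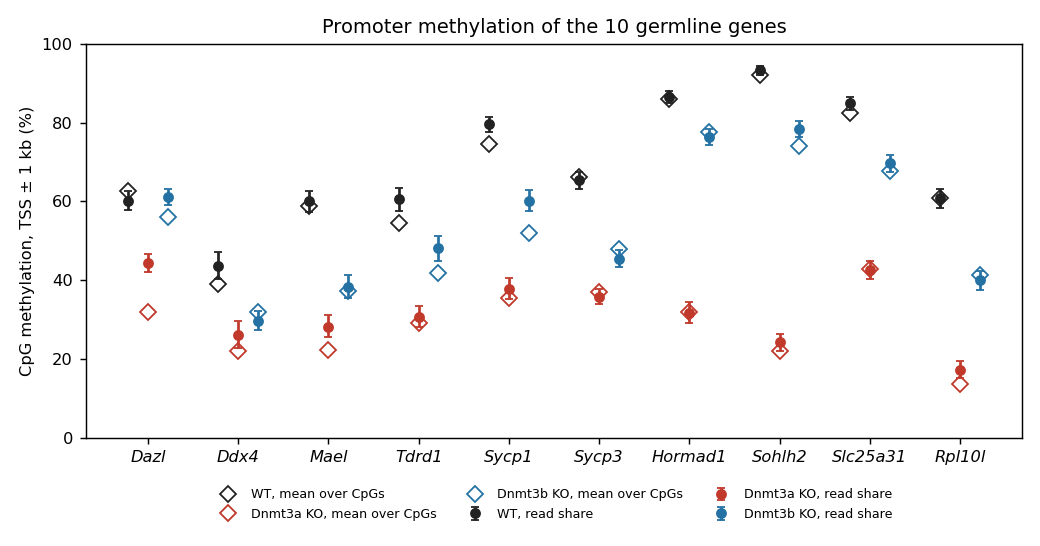
Promoter methylation (TSS ± 1 kb, in %) of the 10 germline genes in WT, 3aKO and 3bKO ESCs, as the share of methylated reads with its 95% Wilson interval (filled circles) and as the mean over CpGs (open diamonds). The mean over CpGs is lowest in 3aKO and highest in WT ESCs at all 10 genes, and at Dazl the read share of 3bKO ESCs (61.2%) lies beside that of WT (60.2%).

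**Figure D2:**
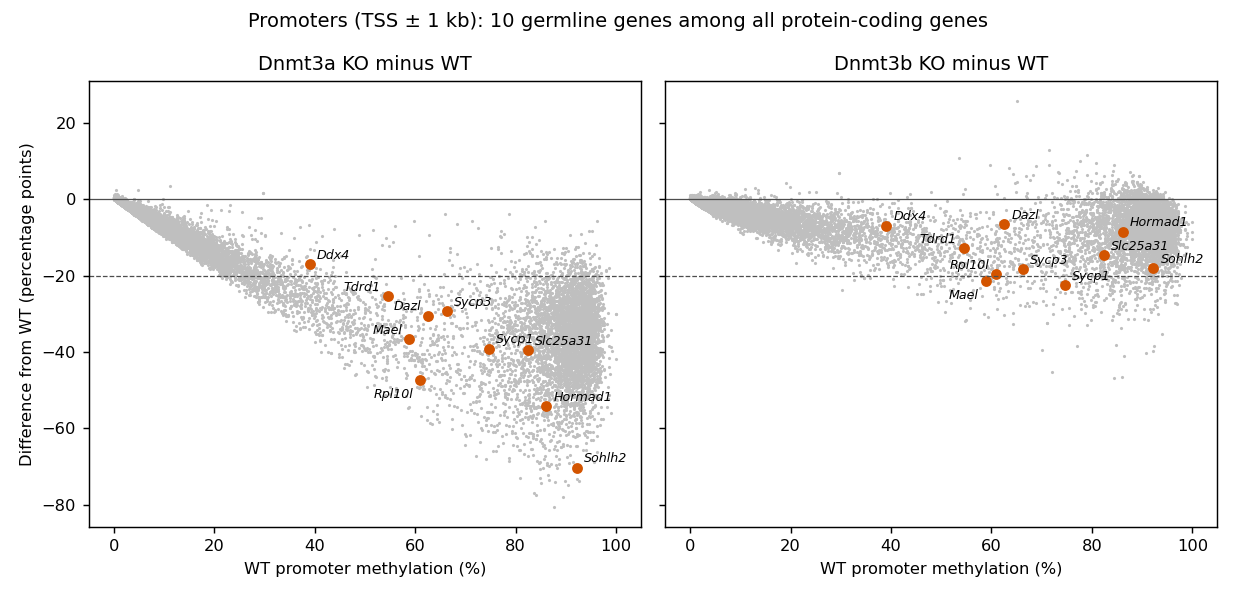
Difference from WT in percentage points against the WT level in %, for 3aKO (left) and 3bKO ESCs (right), with each protein-coding promoter as a grey dot and the 10 germline genes in orange. The dashed line marks -20 points, below which 9 of the 10 genes lie in 3aKO and 2 in 3bKO ESCs.

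*Dazl* and *Ddx4* encode RNA regulators of germ cells, an RNA-binding protein that controls translation and a DEAD-box helicase also known as Vasa. The *Dazl* promoter (chr17:50431924-50433924, minus strand) averaged 62.6% in WT, 32.0% in 3aKO and 56.1% in 3bKO ESCs over 119 CpGs. The SD over these CpGs was 44.4 points in WT, and the promoter held a stretch of high and a stretch of low methylation. From 500 bp before the TSS up to the TSS the mean was 96.8%, 51.9% and 88.1% in WT, 3aKO and 3bKO ESCs. In intron 1, a run of 33 CpGs from 578 to 993 bp after the TSS was below 20% at each CpG in WT and averaged 1.16%. Runs are counted over CpGs that met the minimum of reads in each genotype. In this stretch 11 further CpGs did not, and 1 of them, at 615 bp, was at 53.3% of 15 reads in WT. The *Dazl* levels also depend on the weight of each CpG. As shares of reads they were 60.2% (57.7 to 62.6%) in WT, 44.4% (42.2 to 46.6%) in 3aKO and 61.2% (59.2 to 63.3%) in 3bKO ESCs. The 3bKO share was thus not distinguishable from that of WT (difference 1.07 points, interval -2.09 to 4.24). A share of reads weights each CpG by its depth, which was not matched between the genotypes. With reads thinned to the lowest depth at each CpG, the mean differed from WT by -31.3 points in 3aKO and -7.27 in 3bKO ESCs.

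The *Ddx4* promoter (chr13:113441518-113443518, minus strand) had the lowest WT level and, in WT and 3aKO ESCs, the lowest read depth, with 9.96 reads at a CpG on average in WT and 7.55 in 3aKO ESCs. Its mean over 80 CpGs was 39.0% in WT, 22.0% in 3aKO and 32.0% in 3bKO ESCs. Around the TSS the gene was unmethylated in WT, where 14 CpGs from -47 to 14 bp averaged 2.38%. The flanks were not, with 90.6% between 1000 and 500 bp upstream and 100% over 5 CpGs from 500 bp downstream. As shares of reads the 2 KOs were close, at 26.0% (22.7 to 29.6%) and 29.6% (27.3 to 32.1%), and the interval of their difference, -0.67 to 7.78 points, included 0. *Ddx4* is thus a member whose start site goes against the label of a gene with a methylated promoter. *Tdrd1* had a shorter run of this kind in WT, 4 CpGs from 12 to 28 bp that averaged 6.12%.

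*Mael* and *Tdrd1* act in the piRNA pathway, which silences transposons in the male germline. The *Mael* promoter (chr1:168167875-168169875, minus strand) averaged 58.8% in WT, 22.1% in 3aKO and 37.3% in 3bKO ESCs over 72 CpGs. It was 1 of the 2 promoters called in 3bKO ESCs, and the read share was lower than in WT by an interval of 17.6 to 25.6 points there. The *Tdrd1* promoter (chr19:56899699-56901699, plus strand) averaged 54.5%, 29.2% and 41.7% over 63 CpGs. Both genes dipped around the TSS in WT, between flanks of 90.4 to 98.9%. The longest run of CpGs below 20% was 3 CpGs at *Mael* and 4 at *Tdrd1* in WT, 16 and 11 in 3aKO, and 5 and 6 in 3bKO ESCs.

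*Sycp1*, *Sycp3* and *Hormad1* encode proteins of meiotic chromosomes. SYCP1 forms the transverse filaments and SYCP3 the axial elements of the synaptonemal complex, and HORMAD1 marks chromosome axes that have not yet synapsed. The *Sycp1* promoter (chr3:102739023-102741023, minus strand) averaged 74.6% in WT, 35.4% in 3aKO and 52.1% in 3bKO ESCs over 95 CpGs. Its difference in 3bKO ESCs was larger after the TSS than before it. Between 1000 and 500 bp upstream the level was 91.8% in WT and 83.9% in 3bKO ESCs. In the 500 bp upstream the level was 84.4% in WT and 81.9% in 3bKO ESCs, whereas in the first 500 bp downstream it was 67.8% and 36.2%. The *Sycp3* promoter (chr10:87921314-87923314, plus strand) averaged 66.2%, 37.0% and 47.9% over 66 CpGs and was the most deeply read of the 10 in both KOs, at 32.7 reads for each CpG in 3aKO and 32.1 in 3bKO ESCs. It lies within the gene *Chpt1* on the other strand, and no other member's window overlaps a further gene.

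*Hormad1* (chr3:95362599-95364599, plus strand) showed the widest gap between the KOs among the 3 meiotic chromosome genes. Its mean over 58 CpGs was 86.1% in WT, 31.9% in 3aKO and 77.6% in 3bKO ESCs. At single CpGs, a KO was called hypomethylated where the 95% credible interval of its difference from WT lay beyond 0.2, at 3 or more reads. By this rule 36 of 58 *Hormad1* CpGs were hypomethylated in 3aKO and 0 in 3bKO ESCs.

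*Sohlh2* encodes a helix-loop-helix transcription factor of early germ cells. Its promoter (chr3:54984950-54986950, plus strand) had the highest WT level and the largest difference in 3aKO ESCs. The mean over 69 CpGs was 92.2% in WT, 22.0% in 3aKO and 74.2% in 3bKO ESCs, and 63 of 69 CpGs were hypomethylated in 3aKO against 9 in 3bKO ESCs. In the 500 bp before the TSS, 5.34% remained in 3aKO ESCs of 83.0% in WT. A run of 22 CpGs over 473 bp, from -423 to 48 bp, was below 20% at each CpG in 3aKO ESCs, where WT had no such run longer than 1 CpG. The reads of the 2 strands differed, with 33.8% of plus-strand and 11.3% of minus-strand reads methylated in 3aKO ESCs against 93.1% and 93.4% in WT. Other genes had gaps in 3aKO ESCs too, among them plus- and minus-strand levels of 27.4% and 9.94% at *Rpl10l*, 46.3% and 27.4% at *Sycp1*, 53.6% and 34.3% at *Dazl* (69.4% and 47% in WT) and, the other way, 18.3% and 37.1% at *Mael*. The CpGs read were not matched between strands.

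*Slc25a31* and *Rpl10l* are testis paralogs that stand in for X-linked genes of mitochondrial ADP/ATP exchange and of the large ribosomal subunit. The *Slc25a31* promoter (chr3:40511777-40513777, plus strand) averaged 82.4% in WT, 42.8% in 3aKO and 67.8% in 3bKO ESCs over 73 CpGs. Its mean over CpGs was the highest of the 10 in 3aKO ESCs, although as a share of reads *Dazl* was higher, at 44.4% against 42.6%. The *Rpl10l* promoter (chr12:67384388-67386388, minus strand) kept the lowest, with 61.0%, 13.7% and 41.3% over 71 CpGs. A run of 34 CpGs over 466 bp around its TSS averaged 1.94% in 3aKO ESCs, the longest such run of the 10 apart from a run of 35 CpGs at *Dazl* that extends the stretch of low methylation in WT.

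**Figure D3:**
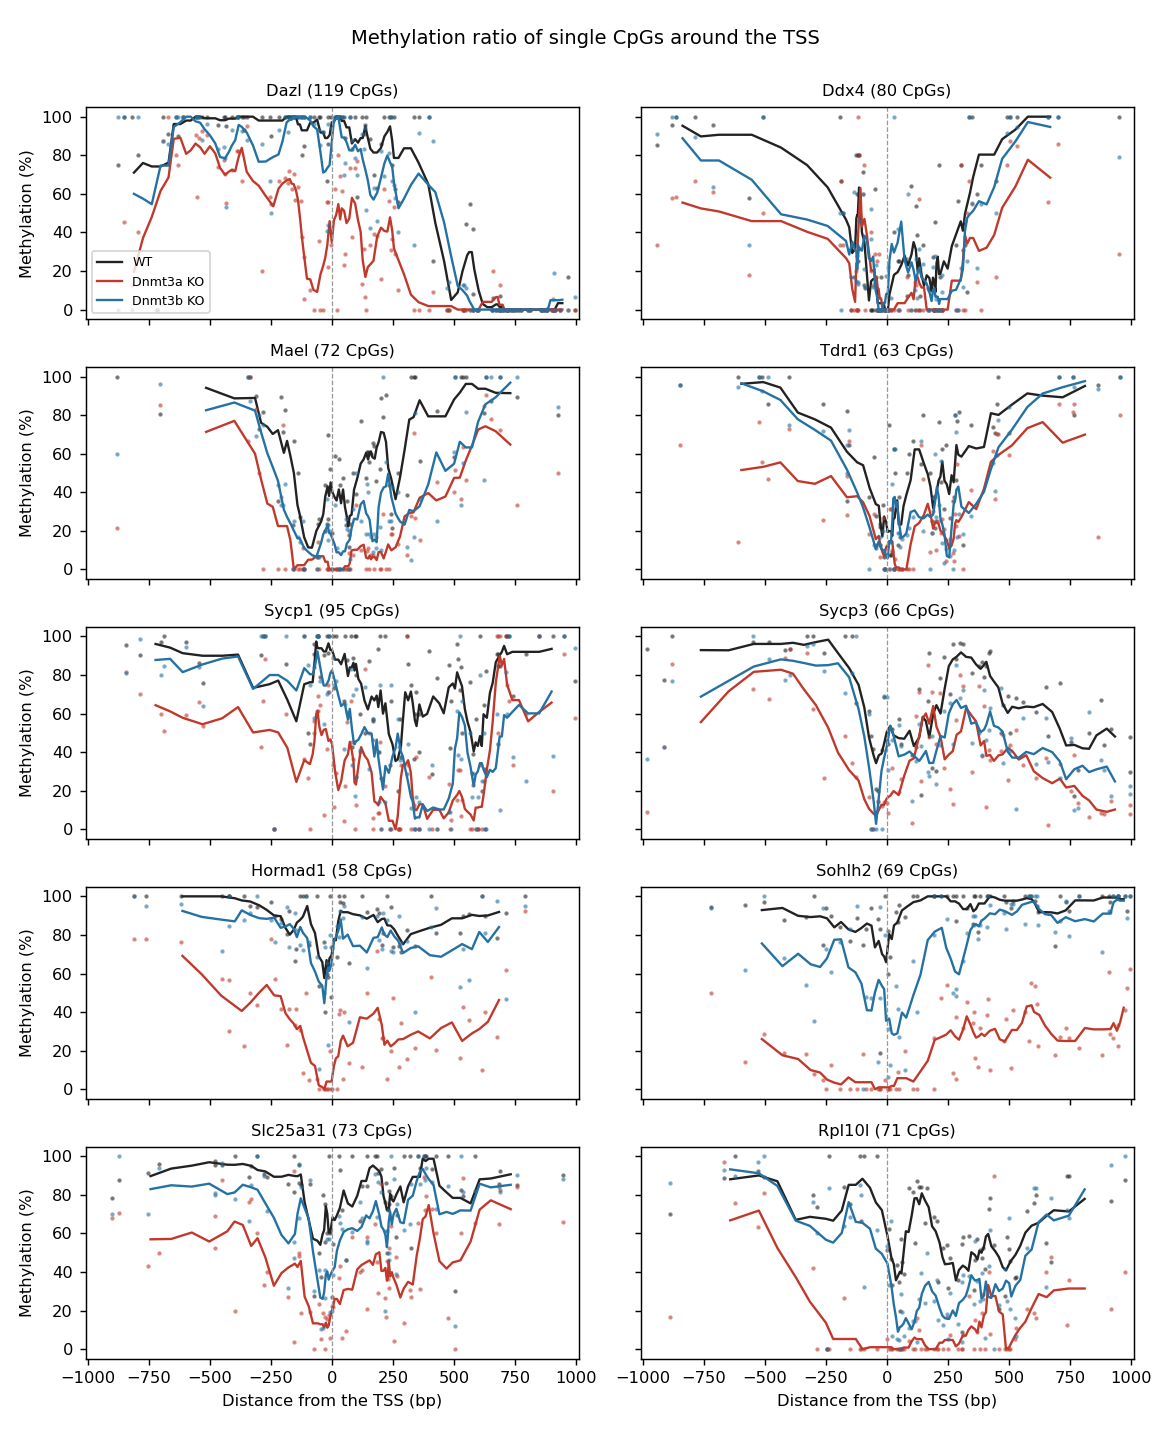
Methylation in % of each CpG (points) and its running mean over 5 CpGs (lines) against the distance from the TSS in bp, for the 10 germline genes in WT, 3aKO and 3bKO ESCs. Sohlh2 and Rpl10l are near 0% around the TSS in 3aKO ESCs, the plotted Dazl CpGs, those read 3 or more times in each genotype, are mostly near 0% in all 3 genotypes from about 600 bp after the TSS, and Ddx4 is near 0% at the TSS also in WT.

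Over all 10 promoters, 248 of 779 CpGs (31.8%) were hypomethylated in 3aKO ESCs, against 8.43% of CpGs in all promoters and 33.5% in promoters at 50% or more in WT. In 3bKO ESCs 50 of 782 (6.39%) were hypomethylated, against 1.40% and 3.45%. Over the 103 promoters that were also as CpG-dense, the shares were 29.8% in 3aKO and 5.07% in 3bKO ESCs. The shares per gene ran from 3.75% at *Ddx4* to 91.3% at *Sohlh2* in 3aKO, and from 0% at *Hormad1* to 13.9% at *Mael* in 3bKO ESCs. Such a call depends on depth and on the WT level too. In 3aKO ESCs a CpG had 7.55 reads on average at *Ddx4* and 22.2 at *Sohlh2*, and the WT levels were 39.0% and 92.2%. A single CpG of the 10 promoters, in *Ddx4*, was hypermethylated by the same rule, in 3bKO ESCs, against 0.0408% of CpGs in all promoters, and 0 were in 3aKO ESCs, against 0.0110%.

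Differences in 3bKO ESCs varied along the promoter. In the first 500 bp after the TSS, 5 of the 10 genes were called lower than WT in 3bKO ESCs. In that window 4.27% of all promoters were, 12.6% of those at 50% or more in WT and 24.5% of those also as CpG-dense. The last set includes all of the 10 genes but *Ddx4*. Its density was matched over the whole promoter, and in the first 500 bp its median was 5 CpGs per 100 bp, against 7.3 in the 10 genes. *Mael* stood at 52.7% in WT and 24.9% in 3bKO ESCs there. *Rpl10l* stood at 52.7% and 25.2%, and *Sohlh2* at 93.6% and 65.6%. The other 2 were *Sycp1*, given above, and *Sycp3*, just past the threshold at 68.6% and 48.5%. At the distal promoter, from 3000 to 500 bp upstream, the median level of the 10 genes was 91.7% in WT and 86.7% in 3bKO ESCs. The median CpG density of the 10 genes was 7.3 CpGs per 100 bp in the first 500 bp and 0.9 at the distal promoter, so that position and CpG density cannot be told apart here.

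In 3aKO ESCs the genes lay below WT in every window. In the first 500 bp so did 3203 of the 3207 promoters at 50% or more in WT. In the first 500 bp 9 of 10 were called, against 27.2% of all promoters, 89.3% of those at 50% or more in WT and 83.3% of those also as CpG-dense. *Ddx4* lay just outside, at 30.9% in WT and 11.3% in 3aKO ESCs. The median level of the 10 genes was 21.5% in the first 500 bp and 56.5% at the distal promoter, against 68.2% and 91.7% in WT. The dense and methylated promoters had medians of 25.8% and 50.8% in 3aKO ESCs, against 68.2% and 90.3% in WT.

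**Figure D4:**
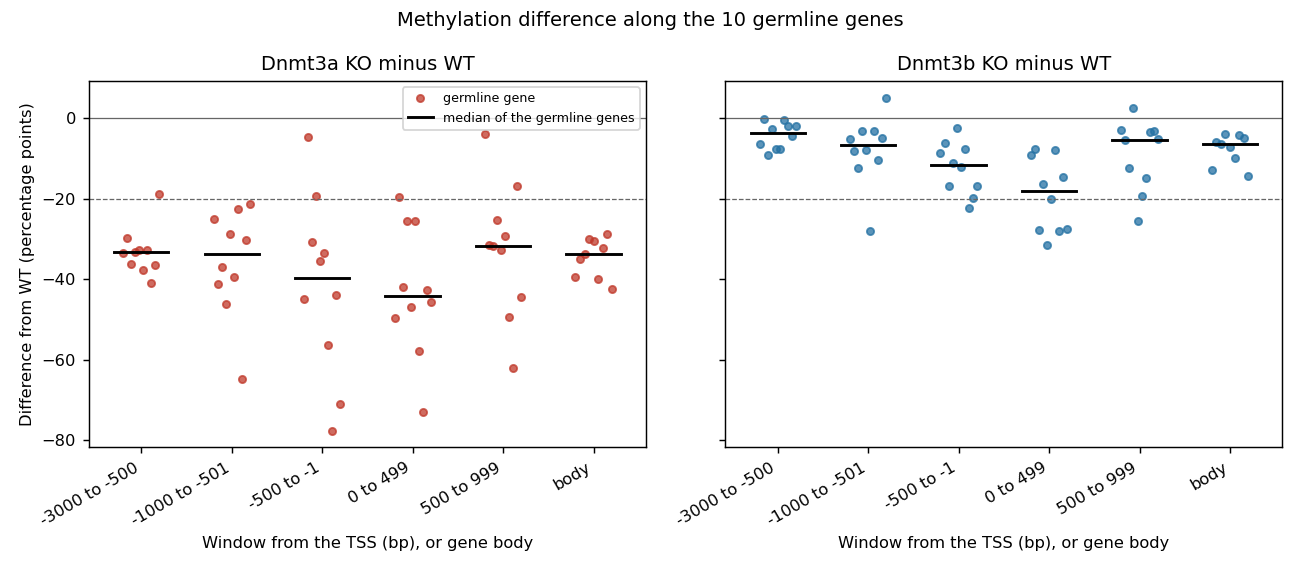
Difference from WT in percentage points in 5 windows from the TSS and in the gene body, for 3aKO (left) and 3bKO ESCs (right), with 1 point per germline gene (9 genes for the body) and the median as a black line. In 3bKO ESCs 5 of 10 genes lie below the dashed line at -20 points in the first 500 bp after the TSS, and 0 of 9 do in the gene body.

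The gene bodies of the 9 genes that have one were methylated at 83.5 to 93.1% in WT and differed less among themselves than the promoters. All 9 were called lower than WT in 3aKO ESCs, as were 96.6% of all bodies, with differences from -42.4 points at *Slc25a31* to -28.8 at *Sohlh2*. In 3bKO ESCs 0 of 9 were called, against 3.08% of all bodies, with differences from -14.4 points at *Slc25a31* to -4.0 at *Tdrd1*. *Sohlh2* had the largest contrast between its regions in 3aKO ESCs, where 23.8% of the WT level remained at the promoter and 69.1% in the body. The promoter kept a smaller share of its WT level than the body in 8 of 9 genes in each KO. The exception was *Sycp3* in 3aKO and *Dazl* in 3bKO ESCs. A smaller share was kept at the promoter in 59.8% and 54.5% of genes with promoters at 50% or more in WT. Where these promoters were also as CpG-dense it was 85.9% in each KO, so that the count is near that of dense methylated promoters in general. As shares of reads *Dazl* was a further exception in 3aKO ESCs. Its promoter stood at 60.2% in WT and 44.4% in 3aKO ESCs, and its body at 83.1% and 49.3%.

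E-boxes were found in the 300 bp upstream of the TSS of 7 of the 10 genes, all but *Dazl*, *Sohlh2* and *Rpl10l*. Of all promoters 7.71% held one, and of the 103 dense and methylated promoters, which include all of the 10 genes but *Ddx4*, 18.4% did. The E2F motif was found in 5 genes, *Ddx4*, *Mael*, *Sycp3*, *Hormad1* and *Rpl10l*, against 23.8% and 19.4%. Both strands were searched, the 2 motifs share no bases in these genes, and a match is a description of the letters and not of binding. Each motif holds a CpG, whose methylation was read directly, at 4 to 38 reads.

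Of the 10 E-box CpGs of the 7 genes, 9 lay in WT ESCs below the mean of the other CpGs in the same 300 bp, and the exception was the *Sycp1* E-box at -287 bp, at 100% of 38 reads. Since 8 of the 10 lie within 100 bp of the TSS, where several promoters dip, the motif and the position cannot be told apart. In 3aKO ESCs 7 of the 10 were at 0%, against 1 in WT and 4 in 3bKO ESCs. Of the 119 other CpGs in the same stretches of the 7 genes, 30.3% were at 0% in 3aKO and 13.4% in each of WT and 3bKO ESCs. The *Hormad1* E-boxes at -57 and -20 bp stood at 53.3% and 58.3% in WT, at 0% in 3aKO, and at 10.5% and 22.9% in 3bKO ESCs, while the other 18 CpGs of that stretch averaged 81.1%, 24.2% and 77.3%. The 3 CpGs between these E-boxes stood at 50% to 73.9% in 3bKO ESCs, whereas in 3aKO ESCs they were at 0% like the E-boxes, within a run of 7 CpGs below 20%. The *Sycp3* E-boxes at -46 and -25 bp showed 20.8% and 40.9% in WT and 0% in 3bKO ESCs, and the 10 other CpGs averaged 64.3% and 54.6%. Here the neighbours were low as well. The CpGs at -67 and -56 bp, outside the motifs, stood at 48.1% and 41.7% in WT and at 0% in 3bKO ESCs, and the E-boxes lay in a run of 5 CpGs that averaged 2.86% in 3bKO ESCs.

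In 3bKO ESCs 5 of the 10 E-box CpGs were below WT, those of *Hormad1* and *Sycp3* and that of *Ddx4*, at 16.7% of 6 reads in WT and 0% of 29 in 3bKO ESCs. The *Mael* E-box was at 35.7% and 43.8%. At *Slc25a31* the E-box CpG was at 27.8% of 18 reads in WT, 0% of 22 in 3aKO and 30% of 20 in 3bKO ESCs. At *Sycp1* the E-box at -94 bp was at 44.4% of 18 reads in WT, 0% of 12 in 3aKO and 75% of 20 in 3bKO ESCs. The *Tdrd1* E-box had 0 methylated reads in all 3 genotypes, which at 16, 17 and 5 reads allows levels of up to 19.4%, 18.4% and 43.4%. The 5 E2F CpGs were all below WT in 3aKO ESCs, and 2 of the 5 were in 3bKO ESCs. That of *Rpl10l* at -43 bp was at 100% of 25 reads in WT, 0% of 20 in 3aKO and 61.5% of 26 in 3bKO ESCs. That of *Sycp3* was at 65.4% in WT and 100% in 3bKO ESCs, opposite to the E-boxes of the same gene. In WT and 3bKO ESCs those of *Ddx4* were at 16.7% and 61.1%, of *Mael* at 50% and 16.7%, and of *Hormad1* at 75% and 76.2%, at 6 to 21 reads.

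**Figure D5:**
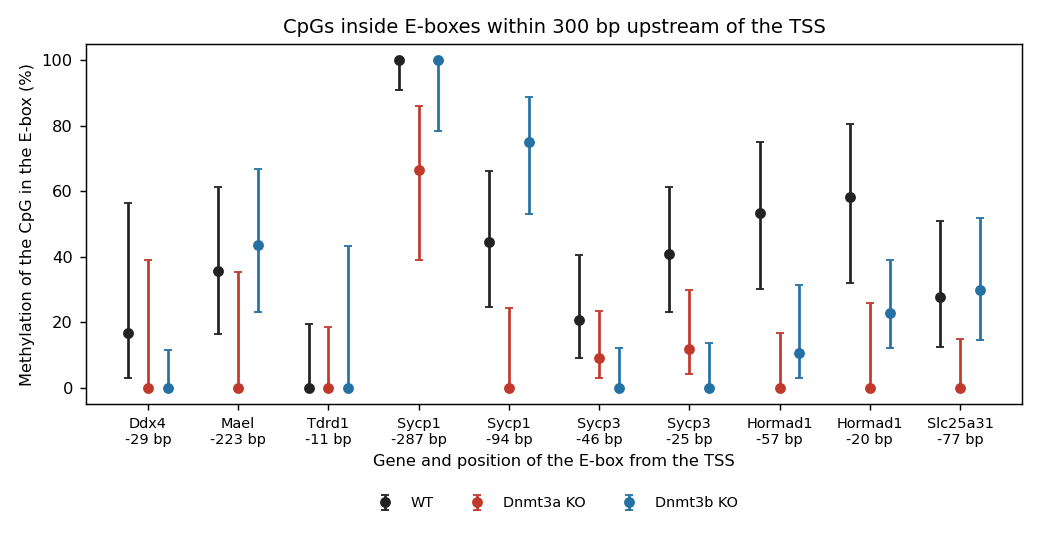
Methylation in % of the CpG inside each of the 10 E-boxes within 300 bp upstream of the TSS, by gene and position, in WT, 3aKO and 3bKO ESCs, with 95% Wilson intervals of the reads. In 3aKO ESCs 7 of 10 are at 0%, and both E-boxes of Sycp3 are at 0% in 3bKO ESCs.

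To see how far the 10 genes stand for others, 60 further germline genes were listed by role, of which 59 were matched to the annotation and 36 lay in the part covered in WT. The remaining 23 were read in the KOs only, and all 23 had lower promoter methylation in 3aKO than in 3bKO ESCs, as did 95.2% of the promoters compared with WT. Of the 36 genes, 20 were at 50% or more in WT. All 20 were called lower than WT in 3aKO ESCs and 0 in 3bKO ESCs, with median differences of -41.5 and -11.6 points, against 95.7% and 6.32% of promoters at that WT level. In the first 500 bp after the TSS, 19 of these had enough CpGs, and 19 were called in 3aKO and 3 in 3bKO ESCs, against 89.3% and 12.6%. E-boxes were found in 4 of the 20 and E2F motifs in 5, against 7.71% and 23.8% of all promoters. Of the 103 dense and methylated promoters, 18.4% and 19.4% held them.

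By role, the genes at 50% or more in WT were 5 of 8 in the piRNA pathway, 5 of 7 of the synaptonemal complex and meiotic cohesin, 3 of 8 in meiotic recombination, 4 of 8 regulators of germ cell RNA and transcription, and 3 of 5 retrocopies. The largest difference in 3aKO ESCs was that of *Hormad2*, the paralog of *Hormad1*, whose promoter stood at 84.3% in WT, 15.8% in 3aKO and 73.5% in 3bKO ESCs. *Tex19.1*, a gene of placenta and germ cells, stood at 73.1%, 18.5% and 73.5%, and was the single gene of the 20 that was not lower in 3bKO than in WT ESCs. *Terb2*, which ties telomeres to the nuclear envelope in meiosis, stood at 93.5%, 39.0% and 80.1%, and *Piwil2*, a piRNA-binding protein, at 81.4%, 27.8% and 69.1%.

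At the other end in 3aKO ESCs, *Sohlh1*, the partner of *Sohlh2*, stood at 93.7% in WT and 70.3% in the KO, where *Sohlh2* kept 22.0%. *Pgk2*, a retrocopy of a glycolytic enzyme gene, *Mei1* and *Tdrd9* followed, with differences of -26.5, -27.4 and -32.8 points. In 3bKO ESCs the largest differences were those of *Sycp2*, a partner of SYCP3 (-19.1 points), *Henmt1*, the piRNA methyltransferase (-17.4), *Rpl39l* (-15.8) and *Mov10l1* (-13.7), and the smallest, besides *Tex19.1*, were those of *Tex19.2*, *Syce3* and *Pgk2*, at -3.12 to -3.31 points.

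Outside these lists, the 5 promoters whose levels in the 4 windows of 500 bp and the 3 genotypes came closest to the median profile of the 10 genes were those of *Vav1*, *Htr2a*, *Tspan1*, *F930017D23Rik* and *Pdgfrb*. Their mean absolute difference from that profile was 4.04 to 5.33 points over 12 values, of 12559 genes compared. The 10 genes themselves lay between 8.66 points (*Sycp1*) and 27.9 points (*Dazl*) from it. Since the 5 promoters were picked as the closest, these ranges do not compare how alike the sets are. The CpG density of the 5 promoters, 1.15 to 2.35 CpGs per 100 bp, was below that of each of the 10 genes.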

How the data were processed

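The WGBS data were 1 merged table for each genotype. The authors aligned reads to mm9 with BSMAP and, with mCall, counted all and methylated reads over each CpG, after BSeQC had removed clonal reads; the deposited counts are not normalized. The deposited methylation ratio is a fraction, methylated over all reads, and was recomputed from the counts. The last, incomplete line of the WT table was dropped; that table ends on chromosome 4 at base 140865857, after 13 whole chromosomes, and genes beyond it were read in the KOs only.

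Promoters were TSS ± 1 kb of the longest protein-coding isoform of each gene in the GENCODE annotation of mm9. A promoter's level was its CpGs' average ratio, at 3 or more reads in each genotype. Read shares have Wilson and their differences Newcombe intervals at 95%. Credible intervals came from Beta posteriors with a uniform prior, with counts above 200 scaled to 200. The high CpG class required a 500 bp window with an observed over expected ratio above 0.75 and 55% GC. With merged replicates no p-value was computed. The calls were tested on simulated counts, drawn for each CpG on its own and without differences between replicates or cell lines. They therefore do not set the call limit against that spread. Python 3.11.15, NumPy 2.4.6, numba 0.67.0 and matplotlib 3.10.9 were used.

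The 10 genes, the other lists and the rules were chosen with earlier results of these data known. All 10 genes are named; of the other germline genes at 50% or more in WT, the 4 with the largest fall and the 4 with the smallest difference in each KO; and the 5 promoters of the most similar profile. Alternatives covered the minimum of reads, weighting, window, TSS, strand, depth and the call limits.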

Additional observations from a re-analysis of the deposited data

How the results depend on the processing

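No paired analysis was possible because the 3 libraries of each genotype were merged into 1 table, and for the same reason no library could be left out. The 5'-most TSS was the TSS used for all 10 genes and changed nothing. Over the other 7 alternatives of the promoter level, the difference of a single gene from WT was below 0 in 70 of 70 values for 3aKO and in 69 of 70 for 3bKO ESCs; the exception was *Dazl* as a share of reads, at 1.07 points in 3bKO ESCs. The median difference in 3aKO ESCs was -36.6 points at 10 or more reads, -36.8 as read shares, -43.3 within 500 bp of the TSS, -41.4 on the plus and -36.3 on the minus strand. In 3bKO ESCs it was -15.0 at 10 or more reads, -15.1 as read shares and -12.9 on the minus strand. The number of genes called in 3aKO ESCs ran from 7, at more than 30 points, to 10. In 3bKO ESCs it was 4 within 500 bp, 1 on the plus strand, 3 on the minus strand and 3 with thinned reads. It was 0 at more than 30 points, 7 at more than 10 points and 4 at under 75% of WT. *Sycp1* also lost its call on the plus strand, at -17.8 points. The shares of all promoters called under these alternatives were not computed. In the first 500 bp after the TSS, 6 alternatives chosen after seeing the data gave 5 called genes each in 3bKO ESCs and 7 to 10 in 3aKO ESCs. Hypomethylated CpGs numbered 453 of 779 in 3aKO ESCs with a credible difference beyond 0. In 3bKO ESCs they numbered 203 of 782 beyond 0 and 27 at a 99% interval. The shares of CpGs in all promoters called by these rules were not computed. The median body difference in 3bKO ESCs was -8.51 over the whole transcribed region and -6.76 at 10 or more reads. The causes were not tested. The minimum of 10 reads left the fewest CpGs at *Ddx4*, 10 of 80, with a difference of -32.8 points in 3aKO ESCs. These do not stand for the whole promoter. Of the 10, 6 were at 80% or more in WT, where the mean over all 80 was 39.0%.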
